A study of Mus musculus with 7 samples.

Results

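The glycolytic isozyme genes of liver and fetal type examined here are Hk1, Hk2, Hk3, Pfkl, Pfkp, Aldoa, Aldoc and Pklr. They were chosen by name, with earlier results of these data known, and every non-control probe carrying a member's name was read. This gave 11 probes for the 8 genes among 24547 probes and 18754 genes tested. RNA of whole liver from 7 untreated C57BL/6J mice aged 4 weeks was labelled with Cy3 and hybridised singly. Livers of 4 AlfpCre- Rbpj flox/flox mice without cholestasis made up the Rbpj+/+ group (replicates 1 to 4), and cholestatic livers of 3 AlfpCre+ Rbpj flox/flox mice the Rbpj-/- group (replicates 1 to 3). AlfpCre carries albumin gene promoter and alpha-fetoprotein gene enhancer sequences and acts in the epithelial lineage of the liver, so that other cells of the organ keep RBPJ, the nuclear factor through which Notch receptors act. Every difference between the genotypes is therefore also a difference between cholestatic and non-cholestatic liver, and in whole tissue fewer cells of a type and less RNA per cell cannot be told apart.

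Glycolysis is carried out by families of isozymes that divide the tissues between them. The adult hepatocyte forms pyruvate with the liver pyruvate kinase encoded by Pklr, and Pfkl is its main phosphofructokinase. Fetal liver, proliferating cells and most non-parenchymal cells use the low-Km hexokinases Hk1, Hk2 and Hk3, the aldolases Aldoa and Aldoc, platelet-type Pfkp and Pkm. Genes of this pathway have left many processed pseudogenes in the mouse genome, so the position of each probe was read together with its value.

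Of the 8 genes, 4 were higher in Rbpj-/- liver (Hk1, Hk2, Hk3 and Pfkl), 1 was lower (Pklr), and 3 did not pass the test (Pfkp, Aldoa and Aldoc). A Benjamini-Hochberg adjusted p below 0.1 from limma was taken as the threshold, and each gene was read from the brightest of its tested probes on its own chromosome (Pklr from its only probe, which has no coordinates). By the same measure 34.2% of all tested genes passed, 14.7% higher and 19.5% lower. Of the 11 probes, 5 were higher and 2 lower, while 33.6% of all tested probes passed, 14.3% higher and 19.2% lower. The median log2 fold change, Rbpj-/- over Rbpj+/+, was 0.78 over the 8 members and -0.12 over all tested genes. In 5 of the 8, no value of one genotype fell within the range of the other, against 36.5% of all tested genes. When the brightest probe was taken wherever it lies, Pfkp turned to higher and Hk1 to lower, because the probes of these genes disagree. Without Rbpj+/+ replicate 2 and Rbpj-/- replicate 1, whose dim probes were brighter than on the other arrays, the same 4 genes were higher and none was lower.

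The sequences that matter for this disagreement are those of the Hk1 and Pfkp probes, of which the last 30 of 60 bases are shown, 5′ to 3′ as the array's design gives them, with capitals for the polyadenylation hexamer AATAAA. This hexamer is contained in 12.9% of all tested probes, counted over whole probes. The Hk1 probe placed on chromosome 5 holds it 2 times in its 60 bases, but not wholly within the 30 shown. The letters show that the probes of each gene read different stretches.
Hk1, chromosome 10, starting at base 3844 of the transcript: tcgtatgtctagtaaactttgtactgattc
Hk1, chromosome 10, starting at base 2983 of the transcript: ttcctcctgtctgaagacggcagcggcaag
Hk1, placed on chromosome 5: ataaaggcagataaagttaaaggtcaaaac
Pfkp, chromosome 13, starting at base 3969 of the transcript: tttgccagtcAATAAAcacctttggttggt
Pfkp, no coordinates, starting at base 2185 of the transcript: aaaatttgttagcgatgattccatttgtgt

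The deleted gene was read first as a check of the labels. Its probe on chromosome 5 was lower in all 3 Rbpj-/- animals, with a log2 difference of -1.13 (SE 0.24, limma adjusted p = 0.0115), and this call was lost without the filter on dim probes (adjusted p = 0.108). Whether this probe lies in the deleted part is not given in the sources used here. Probes detected made up 41.1% to 64.9% of each array. The median intensity was 19.7 on the array of Rbpj+/+ replicate 2 and 31.2 on that of Rbpj-/- replicate 1, against 5.40 to 8.80 on the other 5. The 75th percentile of intensity ranged from 57.5 to 103 on the Rbpj+/+ arrays and from 118 to 143 on the Rbpj-/- arrays. The Rbpj+/+ arrays filled one row of the slide and the Rbpj-/- arrays the other, so slide row and genotype cannot be told apart.

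The values below are normalized log2 intensities, that is the log2 intensity minus the 75th percentile of the array, on which 0 is the level of that percentile. Levels of different probes are not comparable, as each probe has its own affinity. Coordinates of probes are those of the array's design in the mouse build mm9. Values are given in the order of replicates 1 to 4 for Rbpj+/+ and 1 to 3 for Rbpj-/-.

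**Figure D1:**
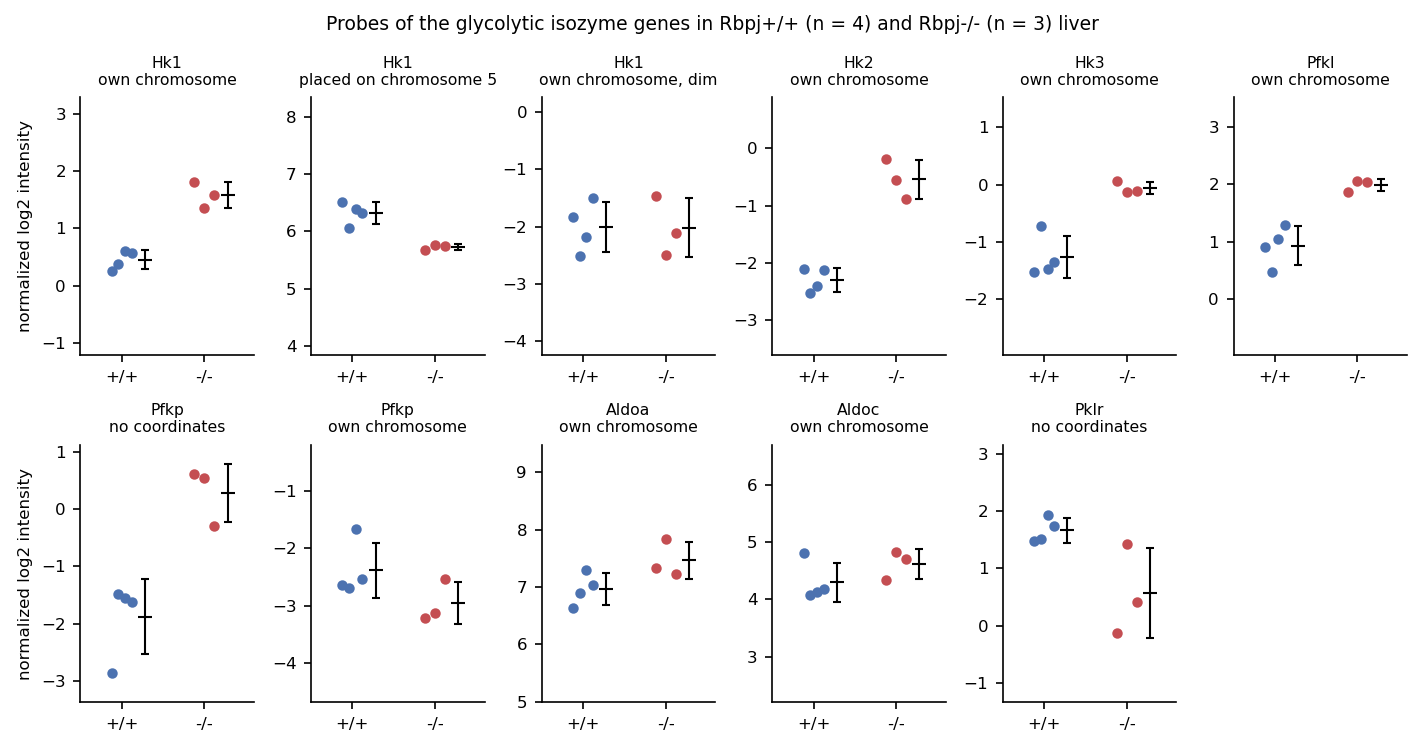
Normalized log2 intensity (y axis, all panels spanning the same range of log2 units) of the 11 probes of the 8 genes in Rbpj+/+ (blue, n = 4) and Rbpj-/- liver (red, n = 3). Points are animals, black bars the mean ± SD. All 3 Rbpj-/- animals lie above all Rbpj+/+ animals for Hk2, Hk3, Pfkl, the brighter chromosome 10 probe of Hk1 and the Pfkp probe without coordinates.

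The low-Km hexokinases, which phosphorylate glucose at the entry of glycolysis, each had a probe on their own chromosome that rose. Hk2, the insulin-regulated hexokinase of muscle and fat that is also found in growing cells, is read by a probe at chr6:82675056-82675115 on the minus strand. Its normalized log2 intensity was -2.10, -2.53, -2.41 and -2.13 in Rbpj+/+ and -0.19, -0.55 and -0.88 in Rbpj-/- liver. The groups were separated by a gap of 1.22 on the log2 scale. Hk2 was 3.38-fold higher in Rbpj-/- liver, with a log2 fold change of 1.76 (SE 0.23, limma adjusted p = 0.00181). By the percentile shift this was the largest change among the probes that represent the 8 genes. Hk2 passed under every alternative, with log2 fold changes from 0.57 with normexp background correction upwards. With that correction it was no longer the largest, as Pfkl (1.02), Hk1 (0.88), Aldoa (0.82) and Aldoc (0.58) lay above it, so its size is uncertain.

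Hk3, a hexokinase found mainly in leukocytes, is read at chr13:55107900-55107959 on the minus strand. Its log2 intensity was -1.52, -0.72, -1.47 and -1.35 in Rbpj+/+ and 0.07, -0.12 and -0.11 in Rbpj-/- liver. The 3 Rbpj-/- animals lay close together and above all Rbpj+/+ animals, of which replicate 2 was the highest. Hk3 was 2.32-fold higher (log2 fold change 1.21, SE 0.23, limma adjusted p = 0.00886), and with normexp correction the log2 fold change was 0.38 (adjusted p = 0.0543).

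Hk1, the hexokinase of brain, red cells and most other tissues, has 3 probes that gave 3 different answers. The brighter of its probes on its own chromosome lies at chr10:61731856-61731915 on the minus strand. It measured 0.26, 0.38, 0.60 and 0.57 in Rbpj+/+ and 1.81, 1.35 and 1.58 in Rbpj-/- liver. These groups did not overlap, and the probe was 2.18-fold higher in Rbpj-/- liver (log2 fold change 1.13, SE 0.20, limma adjusted p = 0.00596).

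The dimmer Hk1 probe on chromosome 10, at chr10:61732717-61732776, measured -1.83, -2.52, -2.18 and -1.50 in Rbpj+/+ and -1.47, -2.49 and -2.11 in Rbpj-/- liver. The ranges coincide almost completely, with a log2 fold change of -0.01 (95% confidence interval -0.73 to 0.70, limma adjusted p = 0.978). This probe was well above background on all arrays but dim, with unscaled intensities of 12.7 to 51.4, against 87.3 to 501 for the brighter one. The mean of both chromosome 10 probes gave a log2 fold change of 0.56 and did not pass (limma adjusted p = 0.115), so the call for Hk1 rests on the brighter one.

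The Hk1 probe that the design places at chr5:22118404-22118463, on the minus strand, measured 6.51, 6.06, 6.39 and 6.33 in Rbpj+/+ and 5.67, 5.77 and 5.74 in Rbpj-/- liver. Here the Rbpj-/- animals lay below all Rbpj+/+ animals, opposite to the chromosome 10 probe. The log2 fold change was -0.60 (SE 0.18, limma adjusted p = 0.0464). Leaving out Rbpj+/+ replicate 3 or 4 or any Rbpj-/- replicate ended this call, with adjusted p-values up to 0.126 over the 7 animals left out in turn. A probe named for Pkm is also placed on chromosome 5 by the design, and that one moved with its gene, as given below.

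The phosphofructokinases catalyse the committed step of glycolysis. Pfkl, the liver subunit, is read at chr10:77450926-77450985 on the minus strand. Its log2 intensity was 0.91, 0.48, 1.05 and 1.29 in Rbpj+/+ and 1.87, 2.06 and 2.05 in Rbpj-/- liver. All Rbpj-/- animals were higher, within a narrow range. Pfkl was 2.08-fold higher (log2 fold change 1.06, SE 0.23, limma adjusted p = 0.0124), and it lost the call without the filter on dim probes (adjusted p = 0.113), which raises the number of probes tested to 55681.

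Pfkp, the platelet subunit found in many proliferating cells, has 2 probes that disagree, of which only 1 showed a change. The probe at chr13:6579124-6579183 on the minus strand measured -2.64, -2.69, -1.67 and -2.53 in Rbpj+/+ and -3.21, -3.13 and -2.53 in Rbpj-/- liver, and was not well above background in Rbpj-/- replicate 1. The groups overlapped, and the log2 fold change of -0.58 (95% confidence interval -1.26 to 0.10) did not pass (limma adjusted p = 0.191). With normexp correction it was -0.39 and passed (adjusted p = 0.0816).

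The Pfkp probe without coordinates starts nearer to the 5′ end of the same transcript. It measured -2.86, -1.49, -1.56 and -1.62 in Rbpj+/+ and 0.61, 0.55 and -0.30 in Rbpj-/- liver, without overlap. The log2 fold change was 2.17, or 4.50-fold higher in Rbpj-/- liver (SE 0.38, limma adjusted p = 0.00606). It passed under every alternative run, the highest adjusted p being 0.0721, but with normexp correction the log2 fold change was 1.06. As the probes disagree, no direction is stated for Pfkp as a gene.

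**Figure D2:**
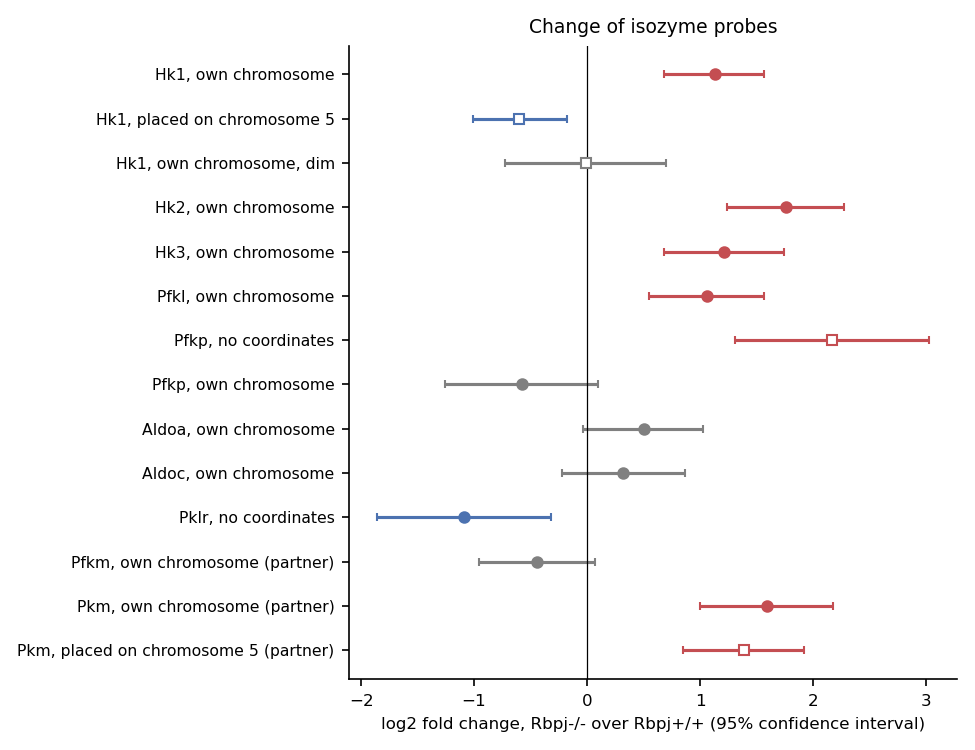
Log2 fold change, Rbpj-/- over Rbpj+/+ (x axis), with its 95% confidence interval from limma for the probes of the 8 genes and of their isozyme partners Pfkm and Pkm. Red is higher, blue lower and grey not called at an adjusted p below 0.1. Filled circles are the probes that represent a gene and open squares its other probes. Open and filled symbols of Hk1 and Pfkp differ in sign, while those of Pkm, 1.59 and 1.39, lie on the same side.

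The aldolases split fructose 1,6-bisphosphate. Aldoa, the muscle and fetal form, is read at chr7:133938816-133938875 on the minus strand. It measured 6.64, 6.90, 7.30 and 7.03 in Rbpj+/+ and 7.34, 7.83 and 7.22 in Rbpj-/- liver. The groups overlapped by the values of replicate 3 of either genotype, and the log2 fold change of 0.50 (95% confidence interval -0.04 to 1.03) did not pass (limma adjusted p = 0.155). This depended on the scaling, since with quantile normalization it was 0.82 and passed (adjusted p = 0.0386).

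Aldoc, the brain form, is read at chr11:78140198-78140257 on the plus strand. Its values were 4.80, 4.07, 4.13 and 4.18 in Rbpj+/+ and 4.33, 4.83 and 4.70 in Rbpj-/- liver. Rbpj+/+ replicate 1 lay among the Rbpj-/- animals and apart from the other 3 of its genotype. The log2 fold change of 0.32 (95% confidence interval -0.22 to 0.87) did not pass (limma adjusted p = 0.352), except with normexp correction (0.58, adjusted p = 0.0759).

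Pklr encodes the pyruvate kinase of liver and red cells, which forms pyruvate at the last step of glycolysis. Its only probe has no coordinates in the design. It measured 1.47, 1.51, 1.94 and 1.74 in Rbpj+/+ and -0.12, 1.42 and 0.41 in Rbpj-/- liver. All Rbpj-/- animals were lower, but replicate 2 lay only 0.05 below the lowest Rbpj+/+ animal and the Rbpj-/- animals spread widely. The log2 fold change was -1.09 (SE 0.34, limma adjusted p = 0.0483), or 2.13-fold lower in Rbpj-/- liver. The call was lost without Rbpj+/+ replicate 3 (-1.0, adjusted p = 0.121), without Rbpj-/- replicate 1 (-0.75, adjusted p = 0.152), without Rbpj-/- replicate 3 (-1.01, adjusted p = 0.131), without both arrays with brighter dim probes (-0.80, adjusted p = 0.146) and without the filter on dim probes (adjusted p = 0.239).

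Pfkm and Pkm, isozymes with which members share a reaction, were read in the same way. Pfkm, the muscle phosphofructokinase, measured 2.04, 1.64, 2.02 and 1.95 in Rbpj+/+ and 1.05, 1.59 and 1.77 in Rbpj-/- liver. The groups overlapped, and the log2 fold change of -0.44 (95% confidence interval -0.96 to 0.07) did not pass (limma adjusted p = 0.185).

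Pkm, the pyruvate kinase of muscle and of fetal and proliferating tissues, rose. Its probe on chromosome 9 measured 0.82, 0.65, 0.31 and 0.75 in Rbpj+/+ and 2.32, 2.65 and 1.68 in Rbpj-/- liver. It was 3.01-fold higher, without overlap (log2 fold change 1.59, SE 0.26, limma adjusted p = 0.00463). The Pkm probe placed on chromosome 5 gave 1.39 (adjusted p = 0.00545). The probes do not tell the M1 and M2 splice forms apart here, as their exons were not placed.

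A ratio of 2 probes on the same array does not depend on how arrays are scaled to each other. Its change between the genotypes shows that the signals of the 2 probes moved unequally. The 8 pairs were formed from members and other glycolytic genes, chosen with earlier results of these data known. Their p-values therefore add no independent support to the calls of single genes. For these pairs, all 35 divisions of the animals into 4 and 3 were enumerated in an exact permutation test (two-sided), with adjustment over the pairs. The smallest p that 4 against 3 animals allow is 0.0286, which each of the 3 pairs given here reached (adjusted p = 0.0457 over all 8 pairs in this exact permutation test).

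The ratio of Pkm to Pklr changed most of these. Relative to the Rbpj+/+ mean, its log2 value was 0.38, 0.17, -0.59 and 0.04 in Rbpj+/+ and 3.48, 2.26 and 2.31 in Rbpj-/- animals. All Rbpj-/- animals stood well above the rest, and the mean ratio was 6.42-fold higher (log2 difference 2.68).

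Among the phosphofructokinases the liver subunit gained on the muscle subunit. The ratio of Pfkm to Pfkl fell by 1.50 on the log2 scale, from -0.32 to 0.18 in Rbpj+/+ and from -1.80 to -1.26 in Rbpj-/- animals. The ratio of Pfkp to Pfkl fell by 1.64 with the chromosome 13 probe of Pfkp. With the Pfkp probe without coordinates it was higher by 1.11 (unadjusted p = 0.114, exact permutation test, groups overlapping). The chromosome 13 probe was dim, with unscaled intensities of at most 20.4, and was not well above background in Rbpj-/- replicate 1. Its own log2 fold change of -0.58 did not pass, whereas that of Pfkl was 1.06. The lower ratio therefore does not show a fall of Pfkp.

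**Figure D3:**
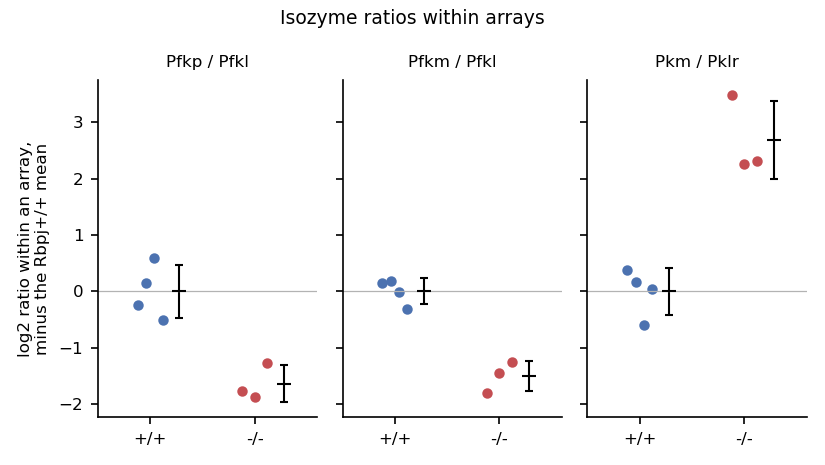
Log2 ratio of isozyme pairs within each array, minus the mean of the Rbpj+/+ arrays (y axis), for 4 Rbpj+/+ (blue) and 3 Rbpj-/- animals (red). Points are animals, black bars the mean ± SD. The ratio of Pkm to Pklr stands between 2.26 and 3.48 in Rbpj-/- animals, and those of Pfkp and Pfkm to Pfkl lie below all Rbpj+/+ animals. Pfkp is read here from its dim chromosome 13 probe.

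The other genes of glycolysis and of the pathways linked to it were read from a list of 53 genes, of which 49 were tested. Of these, 14 were higher, 6 lower and 29 did not pass, with a median log2 fold change of 0.26, beside the 14.7% and 19.5% of all tested genes. The sugar and lactate transporters held the largest share of higher genes, 5 of 7 (Slc2a1, Slc2a3, Slc2a4, Slc16a3 and Slc16a7) with 1 lower (Slc16a1). Slc2a3 was detected on 2 of 4 Rbpj+/+ arrays. Slc16a7 has 4 tested probes with log2 fold changes from -0.41 to 0.95, of which 3 were higher. None of the 4 tested genes of gluconeogenesis passed (log2 fold changes from -0.24 to 0.23). Of hexose phosphorylation 2 of 4 were higher (Hkdc1 and Galk1) and none lower. Of upper glycolysis 1 of 7 was higher (Pfkfb4) and none lower. Of lower glycolysis 3 of 8 were higher (Tpi1, Pgk1 and Pkm) and 1 was lower (Gapdh). Gapdh has no tested probe on its own chromosome, and its 9 tested probes had log2 fold changes from -0.57 to 0.89, with 1 higher and 2 lower. Of the lactate and pyruvate genes 2 of 9 were higher (Ldhb and Pdk3) and 2 lower (Pdk1 and Pdhb). Ldha, not called from its brightest probe (-0.38), has 3 tested probes with log2 fold changes from -0.38 to 0.94, of which 1 was higher. Of the pentose phosphate and glycogen genes none of 5 was higher and 1 was lower (Gys2), and of the regulators 1 of 5 was higher (Myc) and 1 lower (Mlxipl). Ppargc1a, a regulator not called from its brightest probe (0.69), has 2 tested probes, of which 1 was higher (1.05). The lower count was 2 after quantile normalization, 1 without Rbpj-/- replicate 1, 2 without Rbpj+/+ replicate 3, 2 without Rbpj+/+ replicate 4 and 2 without both arrays with brighter dim probes. The higher count was 7 without Rbpj-/- replicate 2.

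Hkdc1, a further member of the hexokinase family, measured -3.51, -3.37, -4.88 and -3.20 in Rbpj+/+, where it was detected on 1 of 4 arrays, and 1.91, 1.04 and 0.72 in Rbpj-/- liver, where it was detected on all. The fitted log2 fold change was 4.97 (SE 0.44, limma adjusted p = 0.000412) and 2.04 with normexp correction, so its size is uncertain. Slc2a4, the insulin-responsive glucose transporter GLUT4, measured -3.08, -1.02, -1.90 and -1.96 in Rbpj+/+ and -0.11, 2.46 and 0.19 in Rbpj-/- liver. Its log2 fold change was 2.84 (SE 0.65, limma adjusted p = 0.0167), with replicate 2 far above the other Rbpj-/- animals. Without that replicate it was 2.03, with normexp correction 1.49 and without both arrays with brighter dim probes 3.64. It lost the call without the filter on dim probes (adjusted p = 0.128).

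Slc16a3, the lactate exporter MCT4, rose by a log2 fold change of 2.55 (limma adjusted p = 0.00135), from between -2.20 and -1.43 in Rbpj+/+ to between 0.17 and 1.13 in Rbpj-/- liver, and by 1.41 with normexp correction. Pfkfb4, a bifunctional enzyme that sets the level of the phosphofructokinase activator fructose 2,6-bisphosphate, rose by 1.62 (adjusted p = 0.00171), or by 0.69 with normexp correction. Pdk3, an inhibitory kinase of pyruvate dehydrogenase, was well above background on none of the 4 Rbpj+/+ arrays and on all 3 Rbpj-/- arrays. It was at least 5.26-fold higher in Rbpj-/- liver (limma adjusted p = 0.000266) by the percentile shift, while with normexp correction the fitted log2 fold change was 0.66. For this bound the Rbpj+/+ level was set at the lowest signal among probes well above background of each array, or at the probe's own where that was higher.

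Among the genes that fell, Mlxipl, which encodes the carbohydrate response factor ChREBP, measured 6.47, 6.73, 6.68 and 6.61 in Rbpj+/+ and 4.99, 5.03 and 5.97 in Rbpj-/- liver. It fell by 1.29 on the log2 scale (SE 0.26, limma adjusted p = 0.0106), and missed the threshold without the filter on dim probes (adjusted p = 0.101). Pdk1, another pyruvate dehydrogenase kinase, fell by 0.82 (adjusted p = 0.0421) and Gys2, the liver glycogen synthase, by 0.65 (adjusted p = 0.0408). Gys2 did not pass after quantile normalization (-0.42, adjusted p = 0.164). Leaving out single animals also ended the calls of Pdk1 (Rbpj+/+ replicate 3 or 4, Rbpj-/- replicate 1) and of Gys2 (Rbpj+/+ replicate 3, Rbpj-/- replicate 1), with adjusted p-values up to 0.141 and 0.134. Pdhb, which encodes a subunit of pyruvate dehydrogenase, fell by 0.57 (limma adjusted p = 0.0852), and this call was lost after quantile normalization (-0.37, adjusted p = 0.148) and without Rbpj+/+ replicate 1, 3 or 4 or Rbpj-/- replicate 1 or 3 (adjusted p up to 0.268).

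**Figure D4:**
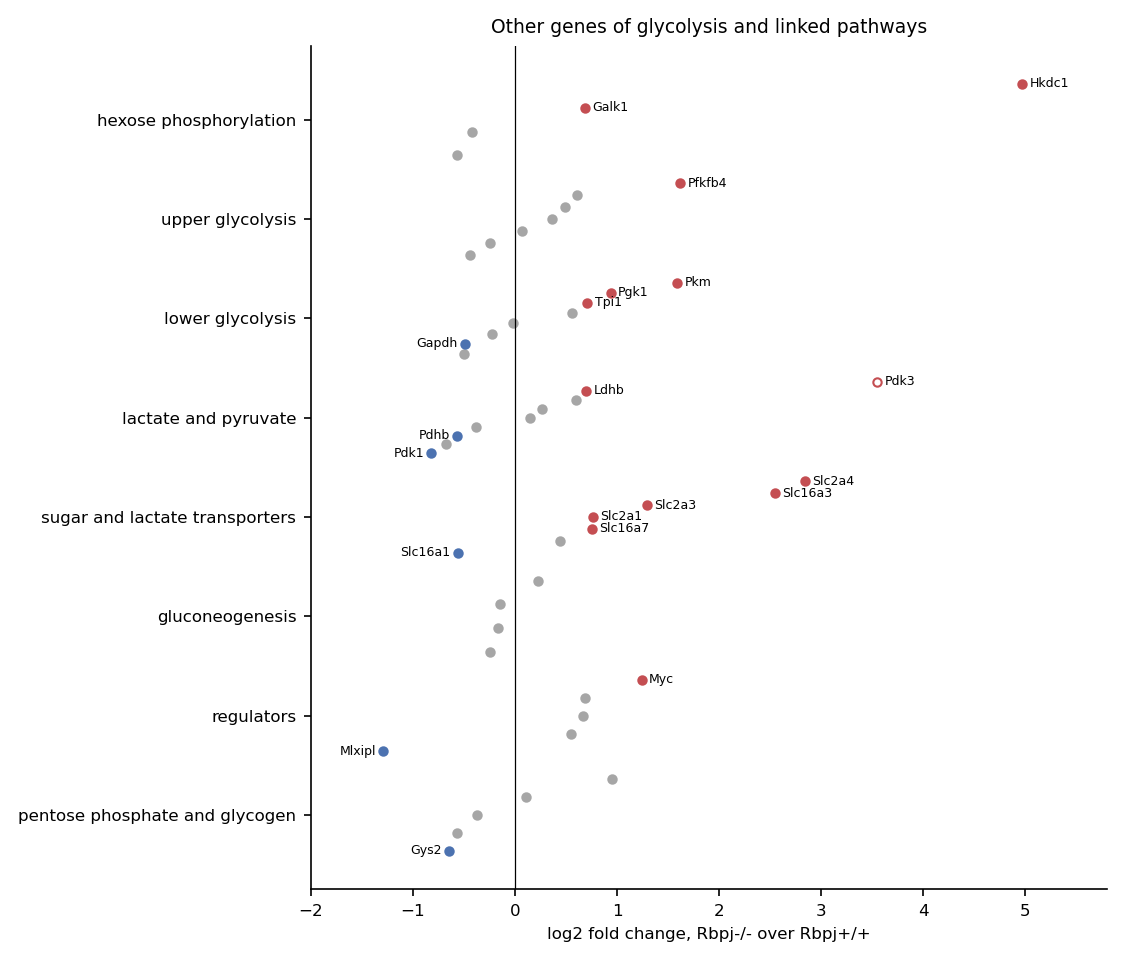
Log2 fold change, Rbpj-/- over Rbpj+/+ (x axis), of the 49 tested genes of glycolysis and linked pathways other than the 8 isozyme genes, 1 point per gene, grouped by role (y axis; the position within a role only separates points). Red genes were called higher and blue genes lower at an adjusted p below 0.1, grey genes were not called. The open circle is Pdk3, not well above background in Rbpj+/+ liver, and Hkdc1, at a fitted 4.97, was above background on 1 of 4 Rbpj+/+ arrays.

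The promoters of Pklr and Hk2 are shown for the members whose regulation by carbohydrate and oxygen is textbook knowledge, as background to the values of Pklr, Mlxipl and Hk2. They are the 250 bases before a start of the gene in RefSeq, build GRCm38.p6, written 5′ to 3′ on the strand of the gene. For Pklr, the window that holds the element below was chosen among those of its starts. In Pklr the capitals mark its carbohydrate response element, which binds ChREBP and reads CACGGG, any 5 bases, CCCGTG, and in Hk2 the core ACGTG of hypoxia-inducible factors on either strand.
Pklr, chr3:89136373-89136622, plus strand: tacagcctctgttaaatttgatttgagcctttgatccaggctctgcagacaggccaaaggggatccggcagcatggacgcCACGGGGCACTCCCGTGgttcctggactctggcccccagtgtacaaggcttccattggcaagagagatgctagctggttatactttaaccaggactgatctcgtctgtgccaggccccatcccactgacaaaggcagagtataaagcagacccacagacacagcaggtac
Hk2, chr6:82774455-82774704, minus strand: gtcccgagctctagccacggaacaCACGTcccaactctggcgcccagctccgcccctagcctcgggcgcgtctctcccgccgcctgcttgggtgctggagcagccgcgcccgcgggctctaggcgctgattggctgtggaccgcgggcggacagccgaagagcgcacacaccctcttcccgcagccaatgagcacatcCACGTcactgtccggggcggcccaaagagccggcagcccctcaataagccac

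All 8 members matched the table of promoters by symbol, with 13 windows of 300 bases each, which run from 250 bases before to 50 after the start. The carbohydrate response element, which starts 170 bases before the start of Pklr chosen here, was spelled as in Pklr. Its match in 1 of 32851 windows, that of Pklr itself, was therefore fixed by the choice of letters. The other motifs were searched on both strands in the same windows. ACGTG was matched in 6 of the 13 windows, belonging to Aldoa, Aldoc, Hk1, Hk2 and Hk3, against 19.6% of all windows. In Hk2 the matches start 226 and 52 bases before the start. The E-box CACGTG, which contains ACGTG, was in none of the 13 windows and in 7.15% of all. TGGGAA, the core bound by RBPJ, was in 2 windows, both of Aldoc, and in 25.6% of all. These are matches of letters, which say nothing of binding.

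The tested genes whose profile over the 7 arrays was most like that of each member were found by the root mean square difference of their centred log2 values, among 18719 genes. For Hk1 they were Adam15 (0.0845) and Rcn1 (0.0977), and for Hk2 Rgs2 (0.10) and Tro (0.112). For Hk3 they were the interferon-induced Ifit2 (0.0545) and the lymphocyte GTPase gene Gimap5 (0.104), and for Pfkl Lhfp (0.0909) and Dpysl2 (0.0913). All 8 of these were themselves higher in Rbpj-/- liver, which their choice by likeness to higher members fixed in advance. For Aldoc they were Vkorc1l1 (0.0715) and Snrk (0.0726), for Aldoa an unnamed transcript (0.0966) and Spry1 (0.116), and for Pfkp an unnamed probe (0.131) and Hmgn5 (0.135). For Pklr they were Tm4sf5 (0.147) and Npb (0.171), the least close of the named genes, and both were lower, again by the way they were chosen.

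Markers of several liver cell types moved with genotype. The hepatocyte markers of the labelled tissue were detected on all arrays, but 5 of 8 were lower in Rbpj-/- liver, among them Alb (-0.78) and Ttr (-0.77), with summed levels of 11.16 to 11.61 in Rbpj+/+ and 10.60 to 10.84 in Rbpj-/- animals (log2 of the summed normalized intensities). Of the monocyte and macrophage markers 7 of 9 were higher and 1 lower (Itgam), with summed levels of 6.32 to 6.64 and 8.02 to 8.57 in the same order. Adgre1 (1.66) and Cd68 (1.53) were among the higher ones. Of the neutrophil markers 4 of 9 were higher and 1, Elane, was lower, with S100a8 (2.62) and S100a9 (2.46) higher. Mmp8 and Retnlg, also higher, entered the test only through the Rbpj-/- arrays. The summed levels of the neutrophil list were 2.67 to 4.67 and 5.09 to 6.16.

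Of the stellate and fibroblast markers 6 of 7 were higher (5.65 to 6.22 and 6.79 to 7.51), Col1a1 by 1.44 and Col1a2 by 1.37, and all 7 proliferation markers were higher (3.71 to 4.74 and 5.75 to 6.27), Mki67 by 2.68 and Top2a by a fitted 3.61, although Top2a was detected on 1 of 4 Rbpj+/+ arrays. Of the cholangiocyte markers 2 of 6 were higher, Sox9 and Spp1, while Krt19 (0.25) and Krt7 (-0.45) did not pass. The summed levels of the cholangiocyte list were 1.98 to 2.14 and 2.26 to 3.59. Endothelial markers were mixed, 3 of 7 higher and Kdr lower, with Pecam1 (0.42) not called and Cdh5 (1.02) higher. The summed levels of the endothelial list were 5.13 to 5.61 and 5.53 to 6.02.

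Of the lymphocyte markers 5 of 7 were lower and none higher (3.62 to 4.06 and 3.01 to 3.45), among them Cd79a (-1.99, from a probe placed on another chromosome) and Cd79b (-0.94). Of the erythroid markers 1 of 6 was lower, Alas2, and Hba-a1 (-0.28) and Hbb-b1 (0.36) did not pass. The summed levels of the erythroid list were 7.84 to 9.02 and 6.65 to 8.76. The muscle markers Ckm, Myh1 and Mb were not detected on any array, and the 1 muscle marker tested did not pass. The part of these cell types in the changes of Hk1, Hk2, Hk3, Pfkl, Pkm and Pklr was not tested.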

How the data were processed

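Expression was measured in whole liver of 7 mice on 1-colour arrays. The authors deposited scanner output of Feature Extraction 10.7.3.1 (named in the submitters' processing notes), holding background-subtracted, detrended intensity of each spot without normalization between arrays, together with quality marks. The deposited series matrix holds log2 values that the authors made from the same arrays, and was used as an alternative.

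Control spots were dropped, as were spots with the marks for non-uniformity or population outliers, which cost 146 probe values. Repeated spots were averaged as log2 values, from which the 75th percentile of the array was subtracted. Probes entered the test when every array of 1 genotype or of both marked them as positive, significant and well above background. limma 3.58.1 (R 4.3.3) was fitted with genotype as the factor, p-values were adjusted after Benjamini and Hochberg over all tested probes, and 0.1 was the threshold. Only the limma fit was tested on simulated data, not the normalization, the filter, the choice of probes or the ratios. Tables and figures were made with Python 3.11.15, pandas 2.3.3, numpy 2.4.6 and matplotlib 3.10.9.

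Each gene was read from the brightest of its tested probes on its own chromosome, otherwise by one without coordinates (Pklr, Pgam2, Fbp2 and the markers Epcam, Ngp, Ahsp, Des and Ckm), otherwise by one placed elsewhere (Gapdh, Eno1 and the markers Cd79a and Pcna). The chromosome was taken from RefSeq, and names of 28331 probes were found there by accession, of 2209 by symbol and of 174 by synonym. The probe coordinates (mm9) were not converted, and exons and untranslated regions were not assigned. Members and lists were chosen with earlier results of these data known. The genes named are the members, their isozyme partners, Rbpj, the 4 largest rises and falls among the called genes of the list with a value in both genotypes, the 2 nearest profiles per member and the first 2 markers of each cell type. Other genes, among them Gapdh, Ldha, Ppargc1a, Pdk3, Myh1, Mb and those given by name beside a count, were named after their values were seen. Whether animals shared litters is not given in the sources used here. With 7 arrays, their number sets the precision.

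Results were recomputed with quantile normalization, with normexp (offset 50), with the percentile taken over probes detected everywhere, without the filter on dim probes or with detection required on all 7 arrays, with compromised spots, with array weights, with limma-trend, at 0.05, from the series matrix, with other probes per gene, without each animal, and without both arrays whose dim probes were brighter (Rbpj+/+ replicate 2 and Rbpj-/- replicate 1). The Pfkp probe without coordinates as the probe of that gene was added after seeing the data. The results for some genes, and 5 of the 8 isozyme pairs, are not reported here.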

Additional observations from a re-analysis of the deposited data

Results flagged for a closer look

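In the 4 Rbpj+/+ animals, a sample standing apart from the other 3 was looked for in 67 probes of the isozyme genes, their partners and the rest of the list, by Dixon's ratio of the gap to the nearest value over the range. It was found in 6 probes, where chance gives about 5%. Replicate 1 stood apart for the Pfkp probe without coordinates, where it was the lowest (0.902), and for Aldoc, where it was the highest (0.845). Replicate 3 was the highest for the Pfkp probe on chromosome 13 (0.843) and for Gpi1 (0.951), the gene of glucose-6-phosphate isomerase. Replicate 4 was the highest for Slc2a3 (0.910), a glucose transporter gene, and for Pdk4 (0.873).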

How the results depend on the processing

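No paired analysis was possible because the animals of the genotypes share no numbers in the labels. The 4 higher calls of Hk1, Hk2, Hk3 and Pfkl were kept with every animal left out, and 3 to 6 members were higher over all alternatives. The number of lower members was 0 without the filter on dim probes and without both arrays with brighter dim probes, and 2 with normexp correction and with the brightest probe wherever placed, and 0 to 1 with single animals left out.

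On the rest of the list, the higher count was 5 without the filter, 9 at a threshold of 0.05 and 7 to 14 with single animals left out. The lower count was 0 without the filter, 2 with quantile normalization, with the series matrix and without both arrays with brighter dim probes, and 1 to 9 with single animals left out. The absence of a filter raises the number of probes over which p-values are adjusted. The cause of the other differences was not tested.

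Among the probes that represent the members, the log2 fold changes that crossed the threshold, other than with single animals left out, were those of Hk1 with the mean of its chromosome 10 probes (0.56), Pfkl (1.06) and Pklr (-1.09) without the filter, Pklr without both of these arrays (-0.80), Pfkp (-0.39) and Aldoc (0.58) with normexp correction, and Aldoa with normexp correction, quantile normalization and the series matrix (0.82 each). Pfkp turned to 2.17 with its probe without coordinates. The dim Hk1 probe, at -0.01, changed sign to 0.07 with the percentile over probes detected on all arrays, 0.24 with quantile normalization and with the series matrix, and lay between -0.29 and 0.22 with single animals left out. With single animals left out Pklr ranged from -1.52 to -0.75. Of the other probes named, the Hk1 probe placed on chromosome 5 lost its call without the filter (adjusted p = 0.246) and with normexp correction (0.114). So did Pdk1 (0.226), Gys2 (0.228) and Pdhb (0.343) without the filter, Pdhb with normexp correction (0.107), Gys2 (0.118) and Pdhb (0.143) without both arrays with brighter dim probes, and Gys2 (0.165) and Pdhb (0.149) with the series matrix.

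With the series matrix the ratio of Pfkp to Pfkl was -1.67, not past the threshold. With single animals left out the log2 differences ranged from -1.82 to -1.44 for Pfkp to Pfkl, -1.63 to -1.35 for Pfkm to Pfkl and 2.28 to 2.89 for Pkm to Pklr. No ratio can pass with an Rbpj+/+ animal left out, as the smallest p that 3 against 3 animals allow is 0.10 in the exact permutation test. All 3 ratios also lost the call without Rbpj-/- replicate 1 or 3 (adjusted p = 0.107 each, exact permutation test) and kept it without Rbpj-/- replicate 2 (0.0762).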
